A study of Saccharomyces cerevisiae with 96 samples.

Results

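The transcriptome of dxo1Δ, a haploid budding yeast strain without the DXO1 gene, was compared with that of its parent strain BY4742 (WT), and then with those of 6 other deletion strains. The 3 dxo1Δ transcriptome libraries, chosen by their labels, were set against 3 WT libraries and 18 libraries of the other strains, out of 96 samples in the whole series. The dxo1Δ strain carried the natNT2 cassette in place of DXO1 (dxo1::natNT2), in the BY4742 background that every strain shared (MATα his3Δ1 leu2Δ0 lys2Δ0 ura3Δ0). The other deletion strains were dxo1Δnpy1Δ, dxo1Δrai1Δ and dxo1Δrai1Δnpy1Δ, which also lack DXO1, and npy1Δ, rai1Δ and rai1Δnpy1Δ, which keep it. Their alleles were npy1::kanMX4 and rai1::hphNT1. WT carried no deletion beyond the shared auxotrophic ones. All cultures were grown in YPD, the standard glucose medium, and were collected in log phase. Each strain was a constructed haploid line grown as biological triplicates, so the 3 libraries of a strain measure the spread between cultures of 1 line and not between independent deletions.

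Dxo1 belongs to the DXO family of enzymes, which act on the 5′ end of RNAs that lack a complete m7G cap. It removes the whole NAD moiety from RNAs that begin with the metabolite NAD in place of a cap, and also has 5′-3′ exonuclease activity. Rai1 is its nuclear relative and partners the exonuclease Rat1, whereas Npy1 is a Nudix pyrophosphohydrolase that cleaves NAD into nicotinamide mononucleotide and AMP. The comparison with WT shows what differed between the dxo1Δ and WT libraries, which came from different sequencing runs. The comparison with the other deletion strains shows where dxo1Δ differed from strains built in the same background.

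Strand-specific sequencing of rRNA-depleted RNA was deposited as read counts in 2 tables, 1 counting each mRNA over a region around its translation start (the 5′ region) and 1 over its coding sequence. Counted reads in the 5′ region table were 5045302, 6187577 and 5604878 in dxo1Δ and 12464058, 14017278 and 17733417 in WT, and over coding sequences they were 26691123 to 31898747 in dxo1Δ and 31300875 to 39977036 in WT. The labels place dxo1Δ and every strain lacking DXO1 or RAI1 in 1 sequencing run (18 libraries), and WT and npy1Δ in another (6 libraries). Run and strain therefore cannot be told apart between dxo1Δ and WT. The WT libraries stood apart from those of all 7 deletion strains, npy1Δ of their own run included: 4855 of 6927 transcripts (70.1%) differed between npy1Δ and WT. In the 5′ region table alone, 24 features had no read in any library of the dxo1Δ run and at least 10 reads in every library of the WT run, 0 showed the reverse, and the coding sequence table held 0 such features in either direction. These 24 features included SER3 and 4 others among the 12 largest decreases in dxo1Δ.

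The label was first checked at the deleted gene. DXO1 coding sequence reads numbered 17, 14 and 11 in dxo1Δ, against 89, 132 and 144 in WT and 653 to 897 in the 3 deletion strains that keep DXO1. WT thus lay far below the other strains with an intact DXO1, also after scaling (105 to 149 in WT and 584 to 999 in the 3 strains), and the cause was not tested. After scaling, this was a log2 fold change of -3.15 against WT (edgeR quasi-likelihood test with Benjamini-Hochberg adjustment, adjusted p = 8.10e-08). The 5′ region of DXO1 held too few reads for the check, with 1, 0 and 1 reads in dxo1Δ and 0, 0 and 5 in WT (adjusted p = 0.323). The other decapping genes kept their reads in dxo1Δ. NPY1 had 150.4, 159.7 and 159.5 normalised read counts in dxo1Δ and 54.5, 67.5 and 36.6 in WT. RAI1 had 40.0, 42.5 and 34.4 in dxo1Δ and 10.9, 19.8 and 13.7 in WT. Here and below, normalised read counts are 5′ region reads scaled by TMM factors to the mean effective size of the 24 transcriptome libraries. Both genes were therefore higher in dxo1Δ (log2 fold changes 1.57 ± 0.19 and 1.37 ± 0.30, SE). Neither overlapped between the groups of libraries, as was so for 5310 of 6984 transcripts. Markers of mating type were then examined, since all strains are MATα. MF(ALPHA)1, which encodes the α-factor pheromone, had 5884, 5197 and 5462 in dxo1Δ and 280.5, 319 and 327 in WT. All 4 α-specific genes measured were higher in dxo1Δ. Of 6 a-specific genes, 2 were higher and 3 lower, or 3 higher and 0 lower with total counts. MFA1, 1 of 2 genes for the a-factor pheromone, had 4.85, 11.4 and 8.03 in dxo1Δ and 28.0, 35.7 and 22.9 in WT. The other, MFA2, had 23.0, 22.8 and 23.0 in dxo1Δ and 7.79, 6.62 and 5.72 in WT. Of HIS3, LEU2, LYS2 and URA3, 0 matched a counted mRNA feature by name, so no values are given for them.

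The types of RNA read also differed. mRNA 5′ regions took 25.46%, 23.42% and 25.08% of reads in dxo1Δ, against 10.85%, 10.96% and 9.966% in WT, which averages to 24.65% ± 1.09 in dxo1Δ and 10.59% ± 0.544 in WT (SD, n = 3 each). SCR1, the RNA of the signal recognition particle, took 34.15% ± 1.02 of reads in dxo1Δ and 48.15% ± 1.07 in WT. The 6 snRNAs of the spliceosome took 9.157% ± 0.604 in dxo1Δ and 15.92% ± 1.57 in WT. Residual tRNA reads, left after most had been set apart, took 0.0784% ± 0.00926 in dxo1Δ and 0.00316% ± 0.000363 in WT. In each of these classes the 3 dxo1Δ libraries lay wholly to 1 side of the 3 WT libraries. The exact two-sided permutation test gave p = 0.1, the smallest that 3 against 3 libraries allow, and an adjusted p of 0.114 over the classes compared. In the 18 libraries of the other deletion strains, mRNA took 21.25% to 29.09% and SCR1 29.57% to 44.33% of reads. Because reads are shares of a library, the scaling sets the zero of every fold change. With TMM scaling the median log2 fold change of all transcripts was 0.06, and with total counts it was 1.70. Changes are therefore given relative to the bulk of transcripts.

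Against WT, 5172 of 6984 transcripts passed the test at an adjusted p below 0.05. Of all tested, 2655 were higher (38.0%) and 2517 lower (36.0%) in dxo1Δ. Changes of at least 4-fold comprised 1242 increases (17.8%) and 983 decreases (14.1%). Under total counts, 5102 were higher and 860 lower. In the coding sequence table, 3041 of 7127 were higher and 2932 lower. Genes for making ribosomes and proteins were on the high side in dxo1Δ, and genes for respiration, reserve carbohydrates, nonfermentable carbon and stress on the low side. In RNA from whole cultures, fewer cells expressing a transcript and less of it per cell cannot be told apart.

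**Figure D1:**
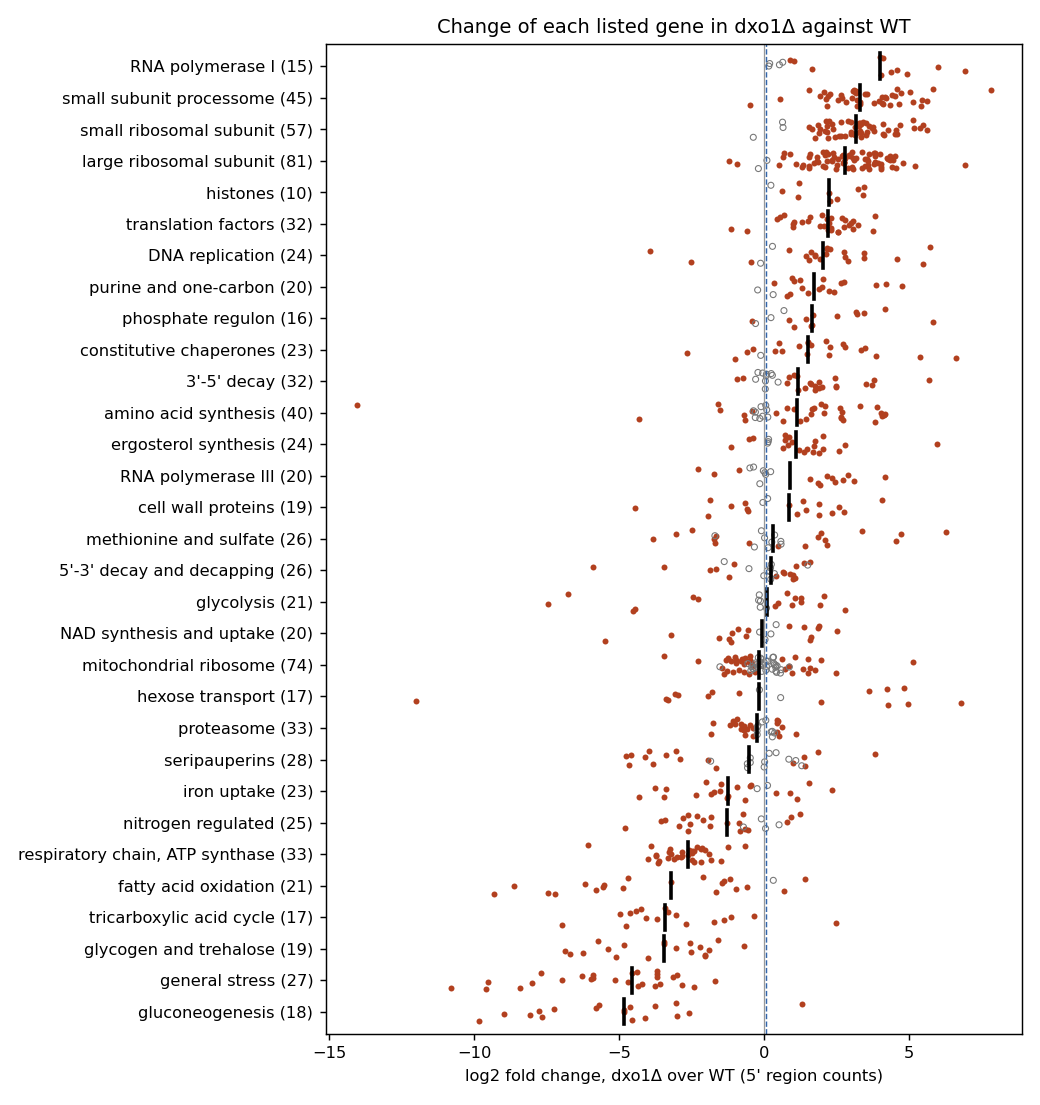
log2 fold change of dxo1Δ over WT (x axis) for each tested member of the gene lists (rows), with filled points at an adjusted p below 0.05, black bars at the list medians and a dashed line at the median of all transcripts (0.06). Ribosomal protein, processome and RNA polymerase I genes lie far to the right, with medians of 2.80 to 4.00, and stress and gluconeogenesis genes far to the left, with medians of -4.56 and -4.83.

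The genes that build ribosomes rose nearly as a block. Of 45 tested genes of the small subunit processome, the nucleolar machine that cuts and folds the 18S rRNA precursor, 44 were higher and 1 lower, with a median log2 fold change of 3.30. NOP1, the methyltransferase of box C/D snoRNPs, had 2354, 1925 and 2047 in dxo1Δ and 3.12, 2.65 and 19.5 in WT (log2 fold change 7.81 ± 0.28, adjusted p = 1.11e-22). SNU13, which binds the same snoRNAs, had 3904, 3261 and 3015 in dxo1Δ and 51.4, 62.2 and 62.9 in WT (5.83 ± 0.20, adjusted p = 2.63e-23). Of 15 genes for RNA polymerase I and its factors, which transcribe the rRNA precursor, 11 were higher and 0 lower (median 4.00). RPA135, the second-largest subunit, had 414, 413 and 355 in dxo1Δ and 7.79, 19.8 and 10.3 in WT (4.92 ± 0.22). RPA12, a small subunit, reached 6.00 ± 0.29 and was among the 12 largest increases. The initiation factor RRN3 had 259.5, 212 and 212 in dxo1Δ and 198, 214 and 193 in WT, which overlap (adjusted p = 0.308), although its coding sequence counts were higher in dxo1Δ (log2 1.02, adjusted p = 5.95e-07).

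Cytoplasmic ribosomal protein genes followed. Of 57 small subunit genes, 54 were higher and 0 lower (median 3.15), and of 81 large subunit genes, 77 were higher and 2 lower (median 2.80). In the coding sequence table, all 57 and all 81 passed as higher, with medians of 4.03 and 4.01. RPS2 had 12573, 11134 and 14108 in dxo1Δ and 502, 554 and 581 in WT (4.52 ± 0.18, adjusted p = 2.17e-21). RPS22A had 2167, 1790.0 and 2308 in dxo1Δ and 46.7, 34.4 and 45.8 in WT (5.61 ± 0.19). RPP0, a stalk protein of the large subunit, had 13247, 10735 and 13517 in dxo1Δ and 964, 843 and 849 in WT (3.81 ± 0.18). RPL14B had 707, 556 and 679 in dxo1Δ and 18.7, 21.2 and 28.6 in WT (4.78 ± 0.19). Many of these genes have near-identical copies, among which the deposited counting could divide reads, so the values of single copies such as RPS22A and RPL14B are uncertain. Mitochondrial ribosomal protein genes did not share the rise: of 74 listed, 13 were higher and 25 lower (median -0.16). Under total counts 65 were higher and the median was 1.47. The lower ones included KGD4 (-3.45), a gene of α-ketoglutarate dehydrogenase that was listed here as YMR31.

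Translation factors and constitutive chaperones were higher as well. Of 32 initiation, elongation and release factors, 30 were higher and 2 lower (median 2.22). TIF4631, the scaffold protein eIF4G, had 335, 259 and 339.7 in dxo1Δ and 23.4, 35.7 and 36.6 in WT (3.24 ± 0.19, adjusted p = 8.72e-17). TEF4, which encodes a subunit of the elongation factor eEF1B, had 502, 407 and 459 in dxo1Δ and 24.9, 49.0 and 26.3 in WT (3.75 ± 0.19). Of 23 chaperone genes, 18 were higher and 4 lower (median 1.52). SSB1, the Hsp70 that binds nascent chains at the ribosome, had 4121, 3332 and 3802 in dxo1Δ and 73.2, 95.3 and 102 in WT (5.36 ± 0.19). SSA2, a cytosolic Hsp70, had 2953, 2422 and 3139 in dxo1Δ and 18.7, 37.1 and 28.6 in WT. Its log2 fold change was 6.62 ± 0.22 in the 5′ region but 2.13 over the coding sequence.

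Genes of cell growth and division moved the same way. Of 24 genes for DNA replication and S phase, 19 were higher and 3 lower (median 2.03). RNR1, the large subunit of ribonucleotide reductase, had 464, 413 and 434 in dxo1Δ and 6.23, 7.94 and 13.7 in WT (5.47 ± 0.22, adjusted p = 3.53e-21). POL30, the sliding clamp PCNA, had 346, 282 and 302 in dxo1Δ and 10.9, 14.6 and 12.6 in WT (4.57 ± 0.22). All 10 histone genes were tested, and 9 were higher and 0 lower (median 2.25), with HTA1 at 3347, 2857 and 2651 in dxo1Δ and 598, 615 and 611 in WT. Of 20 purine and one-carbon genes, 18 were higher and 0 lower (median 1.70). IMD4, 1 of several closely related genes for IMP dehydrogenase, which commits purines to guanine nucleotides, had 1516, 1307 and 1389 in dxo1Δ and 81.0, 70.1 and 77.8 in WT (4.19 ± 0.16).

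Amino acid, sterol and phosphate genes rose in part. Of 40 genes for amino acid synthesis, 24 were higher and 7 lower (median 1.14). ILV5, of branched-chain amino acid synthesis, had 6885, 5315 and 6356 in dxo1Δ and 368, 384 and 366 in WT (4.04 ± 0.17). GCN4, the activator of these genes, had 2972, 4476 and 4542 in dxo1Δ and 13144, 11835 and 11084 in WT (-1.60 ± 0.17, adjusted p = 2.86e-10), a decrease that total counts turned into a log2 fold change of 0.02. SER3, of serine synthesis, was listed at 0 in all 3 dxo1Δ libraries and had 3001, 2489 and 2055 in WT. It is 1 of the 24 features without reads in the dxo1Δ run, and its coding sequence differed by only -0.39. Of 24 ergosterol genes, 18 were higher and 3 lower (median 1.09). ERG11, the lanosterol demethylase, had 1726, 1837 and 1727 in dxo1Δ and 238, 284 and 240.3 in WT (2.78 ± 0.15). Of 16 phosphate regulon genes, 12 were higher and 1 lower (median 1.64). PHO84, the main high-affinity phosphate transporter, had 7973, 6558 and 6168 in dxo1Δ and 137, 74.1 and 153 in WT (5.81 ± 0.22, adjusted p = 8.72e-22). VTC1, of vacuolar polyphosphate synthesis, had 1481, 1258 and 1665 in dxo1Δ and 249, 255 and 269 in WT (2.50 ± 0.15).

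Stress and reserve carbohydrate genes formed the low side. All 27 general stress genes were lower in dxo1Δ (median -4.56 in the 5′ region and -6.62 over the coding sequence), and under total counts 26 were lower. HSP26, a small heat shock protein, had 25.5, 35.3 and 39.0 in dxo1Δ and 62942, 57091 and 56342 in WT (log2 fold change -10.79 ± 0.25, adjusted p = 5.72e-27). HSP12, a membrane-associated stress protein, had 18.2, 35.3 and 28.7 in dxo1Δ and 19422, 22487 and 22061 in WT (-9.59 ± 0.25). Both lay far apart in the groups of libraries, with no overlap, which also held for 5310 of 6984 transcripts. All 19 glycogen and trehalose genes were lower (median -3.46), and under total counts 15 were lower and 1 higher. GPH1, glycogen phosphorylase, had 35.2, 45.6 and 45.9 in dxo1Δ and 3440.3, 3155 and 2892 in WT (-6.23 ± 0.20). GLC3, the glycogen branching enzyme, had 14.6, 17.6 and 19.5 in dxo1Δ and 1566, 1708 and 2136 in WT (-6.70 ± 0.21).

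Genes for carbon sources other than glucose were lower too. Of 18 genes for gluconeogenesis and nonfermentable carbon, 17 were lower and 1 higher (median -4.83), and the counts under total counts were also 17 and 1. PCK1, which catalyses the committed step of gluconeogenesis, had 8.49, 6.22 and 9.18 in dxo1Δ and 8229.8, 7028 and 6675 in WT (-9.84 ± 0.26, adjusted p = 4.75e-26). ACS1, the acetyl-CoA synthetase used without glucose, had 2.43, 0 and 4.59 in dxo1Δ and 1267, 1089 and 1261 in WT (-8.98 ± 0.28). Of 21 genes for peroxisomal fatty acid oxidation, 18 were lower and 2 higher (median -3.21). FOX2, the multifunctional enzyme of β-oxidation, had 1.21, 0 and 0 in dxo1Δ and 361, 319 and 319 in WT. CIT2, the peroxisomal citrate synthase, had 135, 164 and 108 in dxo1Δ and 3607, 3509 and 3358 in WT (-4.70 ± 0.18).

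Respiratory genes were lower as well. Of 17 genes of the tricarboxylic acid cycle, 16 were lower and 1 higher (median -3.42), and all 33 nuclear genes of the respiratory chain and ATP synthase were lower (median -2.61). Under total counts, 12 and 28 were lower, and 3 and 2 higher. SDH1, of succinate dehydrogenase, had 156, 205 and 192 in dxo1Δ and 6209, 5506 and 5434 in WT (-4.96 ± 0.18). KGD1, of α-ketoglutarate dehydrogenase, had 391, 444 and 459 in dxo1Δ and 5714, 5613 and 5118 in WT (-3.68 ± 0.17). CYT1, cytochrome c1, had 101, 186 and 154 in dxo1Δ and 2646, 2418 and 2037 in WT (-4.02 ± 0.19). ATP1, the α subunit of the ATP synthase, had 2336, 3432 and 2863 in dxo1Δ and 17613, 14942 and 15812 in WT (-2.50 ± 0.17).

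Glycolysis and glucose uptake split between isoenzymes. Of 21 genes of glycolysis and fermentation, 10 were higher and 6 lower (median 0.08). TDH3, the main glyceraldehyde-3-phosphate dehydrogenase of growing cells, had 27080.0, 24308 and 30632 in dxo1Δ and 9571, 11827 and 12665 in WT (1.26 ± 0.16, adjusted p = 1.69e-08). TDH1, the isoenzyme known from cells that have stopped growing, had 239, 269.6 and 239 in dxo1Δ and 44463, 40672 and 45301 in WT (-7.46 ± 0.20). Of 17 hexose transporters and regulators, 7 were higher and 8 lower (median -0.16, or 1.79 under total counts). HXT3, a low-affinity glucose transporter, had 3889, 3369.5 and 2469.8 in dxo1Δ and 9.35, 25.1 and 49.2 in WT (6.77 ± 0.28). HXT5, a transporter linked to slow growth, had 3.64, 2.07 and 2.30 in dxo1Δ and 12036, 11870.0 and 9846 in WT (-11.99 ± 0.29). In each of these 2 pairs 1 gene was higher and the other lower in dxo1Δ, under total counts too. Their groups of libraries did not overlap, nor did those of 5310 of all 6984 transcripts.

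Nitrogen and iron genes were mostly lower relative to the bulk of transcripts, and proteasome genes were split. Of 25 genes under nitrogen catabolite control, 18 were lower and 3 higher (median -1.27, or 0.35 under total counts). GDH2, the glutamate dehydrogenase that degrades glutamate, had 98.2, 87.1 and 87.2 in dxo1Δ and 1033, 1149 and 992 in WT (-3.55 ± 0.15). Of 23 iron uptake genes, 16 were lower and 5 higher (median -1.23, or 0.40 under total counts). FIT3, a cell wall mannoprotein that retains siderophores, had 364, 359.9 and 299.5 in dxo1Δ and 6852, 5787 and 7812 in WT (-4.33 ± 0.18). Of 33 proteasome genes, 16 were lower and 7 higher (median -0.24), while under total counts 31 were higher and 0 lower.

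RNA decay and NAD genes, the surroundings of Dxo1, had calls in both directions, as all transcripts did (38.0% higher and 36.0% lower). Of 26 genes of 5′-3′ decay and decapping, 10 were higher and 6 lower (median 0.24). XRN1, the cytoplasmic 5′-3′ exonuclease, had 939.9, 1162 and 1198 in dxo1Δ and 985, 933 and 878 in WT (0.23 ± 0.14, adjusted p = 0.139). It passed as higher without dxo1Δ replicate 1 (0.35, adjusted p = 0.0307) and over the coding sequence (0.42). DCS1, the scavenger enzyme that hydrolyses freed m7G caps, had 126, 143 and 137 in dxo1Δ and 1611, 1493 and 1320.4 in WT (-3.46 ± 0.15). Its paralogue DCS2 had 9.70, 29.0 and 17.2 in dxo1Δ and 1088, 1191 and 1116 in WT (-5.89 ± 0.21). Of 32 genes of the exosome and other 3′-5′ decay, 20 were higher and 2 lower (median 1.16). Of 20 genes for NAD synthesis and uptake, 7 were higher and 9 lower (median -0.06, or 1.56 under total counts). PNC1, the nicotinamidase of the salvage pathway, had 179, 239 and 243 in dxo1Δ and 2108, 2105 and 1866 in WT (-3.21 ± 0.16, adjusted p = 7.44e-19).

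Noncoding RNAs differed by class. Of 222 tested tRNA genes, 146 were higher and 5 lower (median 2.63). tH(GUG)G2, a histidine tRNA gene, had 1047, 963 and 715 in dxo1Δ and 0, 0 and 4.58 in WT. Most tRNA genes have identical copies and most tRNA reads were taken out before counting, so single tRNA genes are uncertain. Of 77 snoRNAs, 38 were higher and 28 lower (median 0.26). Of 255 long terminal repeats, 167 were lower and 21 higher (median -1.22), and all 50 tested retrotransposon features were lower (median -1.03). Under total counts these 2 medians were 0.41 and 0.60, so the direction of both repeat classes depends on the scaling.

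The same lists were set against WT in the other deletion strains. All 7 comparisons use the same 3 WT libraries, so they are not independent. The number of transcripts that passed against WT was 5172 in dxo1Δ (74.1%), 5368 in rai1Δ (76.6%), 5243 in dxo1Δnpy1Δ (74.9%), 5271 in dxo1Δrai1Δ (75.3%), 5297 in rai1Δnpy1Δ (75.7%), 5418 in dxo1Δrai1Δnpy1Δ (77.4%) and 4855 in npy1Δ (70.1%). The median log2 fold change of the small ribosomal subunit genes was 3.15 in dxo1Δ and 2.55 to 3.58 in the other 6. For general stress genes it was -4.56 in dxo1Δ and -3.91 to -4.58 in the others. For respiratory chain genes it was -2.61 in dxo1Δ and -2.40 to -2.69 in the others. The phosphate regulon lay at 1.64 in dxo1Δ, 1.67 in dxo1Δnpy1Δ and 2.05 in npy1Δ, and at 0.77 to 1.06 in the 4 strains that lack RAI1.

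**Figure D2:**
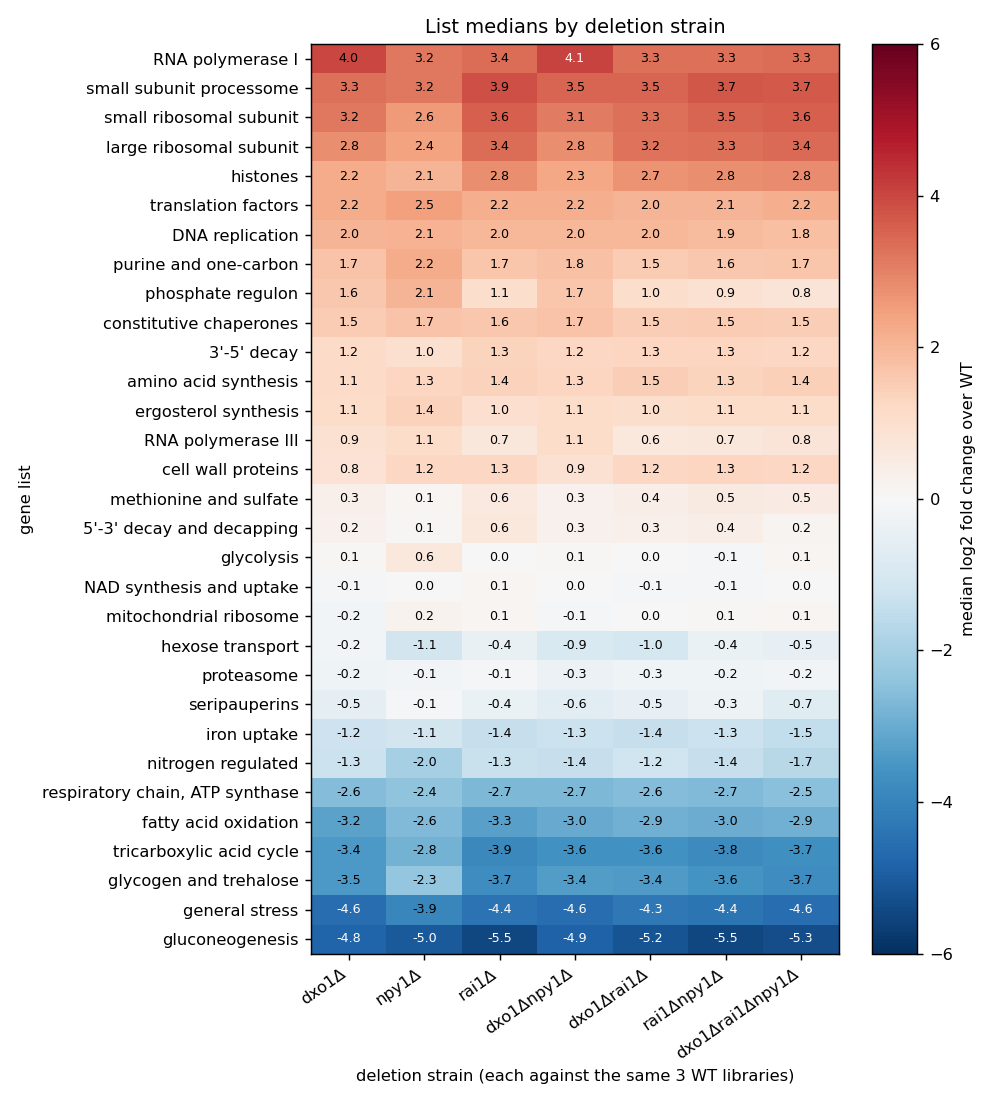
Median log2 fold change against WT of each gene list (rows) in dxo1Δ and the 6 other deletion strains (columns), all set against the same 3 WT libraries, with the value printed in each cell. Small ribosomal subunit genes lie at 3.15 in dxo1Δ and 2.55 to 3.58 in the others, and the phosphate regulon at 1.64 in dxo1Δ and 0.77 to 2.05 in the others.

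To find what departed from this shared change, dxo1Δ was tested directly against the mean of the 6 other strains, with the 21 deletion libraries in 1 fit and no WT library. A transcript was called at an adjusted p below 0.05 and a log2 difference above 0.5 in size. Of 7002 transcripts, 318 were higher (4.54%) and 313 lower (4.47%) in dxo1Δ. Without dxo1Δ replicate 2, 200 were higher and 192 lower. Over coding sequences 207 were higher and 278 lower. Against the 3 strains that keep DXO1, 474 were higher (6.77%) and 451 lower (6.44%). With npy1Δ, of the other sequencing run, left out of these 3, 640 were higher and 753 lower.

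The number of calls against single strains varied widely. Against dxo1Δnpy1Δ only 2 of 7002 transcripts were called (0.0286%). The calls numbered 856 against dxo1Δrai1Δ (12.2%) and 1121 against rai1Δnpy1Δ (16.0%). They numbered 1395 against rai1Δ (19.9%), 1404 against dxo1Δrai1Δnpy1Δ (20.1%) and 1789 against npy1Δ (25.5%), the strain of the other sequencing run.

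**Figure D3:**
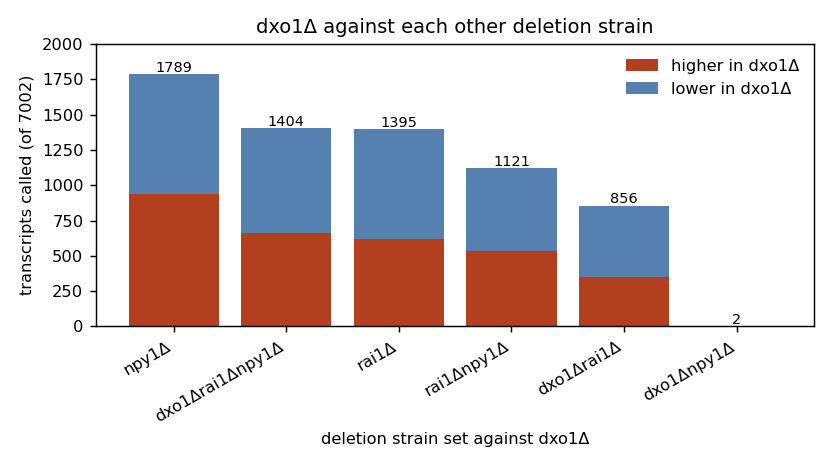
Number of transcripts called in dxo1Δ against each other deletion strain alone, with red for higher and blue for lower in dxo1Δ and the total above each bar. The total is 2 against dxo1Δnpy1Δ and 856 to 1789 against the 5 others.

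The 2 transcripts that separated dxo1Δ from dxo1Δnpy1Δ were NPY1 itself and YGL069C, an open reading frame near NPY1. NPY1 had 150.4, 159.7 and 159.5 in dxo1Δ and 7.01, 7.16 and 9.25 in dxo1Δnpy1Δ (log2 difference 4.33 ± 0.25 SE, adjusted p = 6.90e-14). YGL069C differed by -1.60 ± 0.28 (adjusted p = 0.00966). DESeq2 likewise called 2 transcripts, and 211 (3.01%) had an unadjusted p below 0.05. Over the coding sequence the same 2 genes were called, and MNP1, a mitochondrial ribosomal protein gene, passed the test below the size limit (log2 0.42). YGL069C and MNP1 were named after their values were seen. These counts do not show that other transcripts were equal in the 2 strains.

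With counts scaled over the 21 deletion libraries, 3 of 7002 transcripts set all 12 libraries without DXO1 apart from all 9 of the strains that keep it, counted after their values were seen. They were DXO1 and the genes on either side of it, CTS2 and XRS2. With the scaling over 24 libraries there were 4, the other being the snoRNA SNR74, whose groups touch (126 to 226 without DXO1 and 51.9 to 126 with it). CTS2, a putative chitinase gene, had 188, 183 and 145 5′ region counts in dxo1Δ and 92.0 to 205 in the other strains without DXO1. It had 8.43 to 23.6 in the strains that keep DXO1 and 14.0, 11.9 and 9.15 in WT. The log2 difference from the 3 strains that keep DXO1 was 3.42 ± 0.16 in the 5′ region (adjusted p = 1.14e-16) but 0.04 over the coding sequence (adjusted p = 0.786). XRS2, of the Mre11-Rad50-Xrs2 complex for double-strand break repair, had 84.9, 122 and 111 in dxo1Δ and 47.8 to 134 in the other strains without DXO1. It had 11.3 to 32.8 in the strains that keep DXO1 and 6.23, 5.29 and 4.58 in WT. Its log2 difference was 2.41 ± 0.20 in the 5′ region (adjusted p = 1.89e-10) and 0.24 over the coding sequence (adjusted p = 0.0893). Against WT, it was higher in the 5′ region (4.28 ± 0.30) and lower over the coding sequence (-0.45, adjusted p = 0.00611). CTS2 coding sequence counts, scaled in the same way, were 245, 249 and 287 in dxo1Δ and 108, 138 and 125 in WT. Against the 3 strains that keep DXO1, both neighbours thus passed the test in the 5′ region and not over the coding sequence. The part of the inserted cassette in these differences was not tested.

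**Figure D4:**
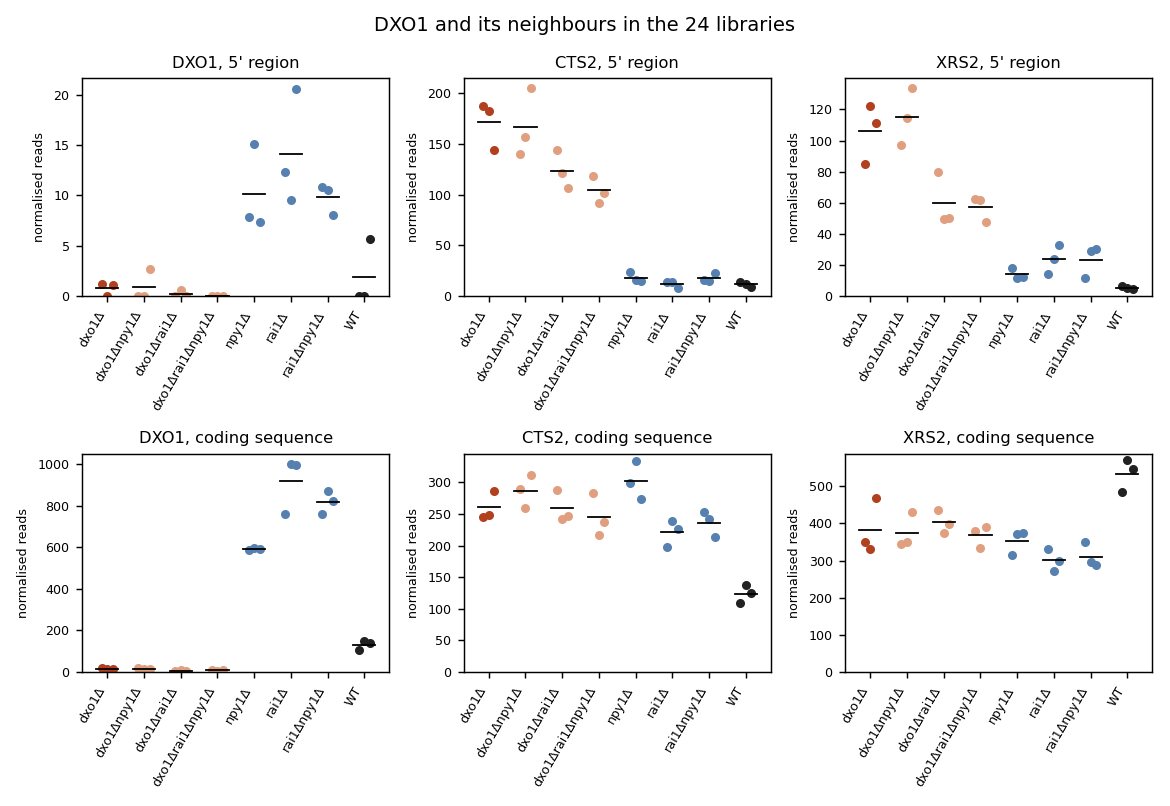
Normalised read counts (y axis, linear) of DXO1 and its neighbours CTS2 and XRS2 in each library of the 8 strains (x axis, dxo1Δ first and WT last), in the 5′ region (upper panels) and over the coding sequence (lower panels), with bars at the strain means. In the 5′ region CTS2 lies at 92 to 205 in the 12 libraries without DXO1 and at 8.43 to 23.6 in the 9 deletion libraries that keep it.

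Departures were sorted by which libraries lay apart. Of the 318 transcripts higher in dxo1Δ, 72 (22.6%) had all 6 libraries of dxo1Δ and dxo1Δnpy1Δ above the 15 others, as against 12 (3.77%) in which dxo1Δ alone stood above all 18. Of the 313 lower ones, 53 (16.9%) had the same 6 libraries below the 15 others and 13 (4.15%) had dxo1Δ alone below all 18. A further pattern followed RAI1. In 59 of the higher (18.6%) and 90 of the lower (28.8%), the 3 strains that keep RAI1 (dxo1Δ, dxo1Δnpy1Δ and npy1Δ) lay wholly apart from the 4 that lack it. Over all 7002 transcripts the shares were 3% for the first pattern, 0.514% for dxo1Δ alone and 5.87% for RAI1. With the scaling over 24 libraries the counts of higher and lower transcripts were 73 and 53 for the first pattern, 10 and 12 for dxo1Δ alone and 63 and 89 for RAI1. These patterns were counted after the values were seen. They are a description, since the calls themselves rest on the same libraries.

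The phosphate regulon departed upward, with 4 of 16 genes called higher and 0 lower, and 7 and 0 over the coding sequence. In the 5′ region, 4.54% of all transcripts were called higher and 4.47% lower. PHO89, PHO5, PHO11 and PHO12, the 4 that were called, were chosen after their values were seen. PHO89, the sodium-coupled phosphate transporter, had 372, 218 and 212 in dxo1Δ and 274, 270.2 and 254 in dxo1Δnpy1Δ. The 15 other deletion libraries lay between 20.7 and 79.6. Its log2 difference from the 6 strains was 2.13 ± 0.18 (adjusted p = 7.85e-10), and 2.26 over the coding sequence. WT had 435, 283 and 358, against which PHO89 in dxo1Δ differed by a log2 fold change of -0.44 ± 0.17 (adjusted p = 0.0244, or 0.0985 with DESeq2). Under total counts it was 1.20, and over the coding sequence 0.07. That difference from WT also failed the test when WT replicate 1 (-0.27), dxo1Δ replicate 2 (-0.28) or dxo1Δ replicate 3 (-0.26) was left out. PHO5, the main secreted acid phosphatase, had 199, 235 and 247 in dxo1Δ and 253, 224 and 249.8 in dxo1Δnpy1Δ. It had 493, 392 and 691 in npy1Δ and 59.9 to 107 in the 4 strains that lack RAI1. The log2 difference of PHO5 was 0.78 ± 0.12 (adjusted p = 4.09e-05). The acid phosphatase genes PHO11 and PHO12, near-identical copies that counting may not tell apart, differed by 0.75 and 0.76. PHO84 was higher in dxo1Δ by 0.47 ± 0.09, under the size limit (adjusted p = 6.20e-04).

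General stress genes departed downward, with 8 of 27 called lower and 1 higher (14 and 1 over the coding sequence). Among all transcripts, 4.47% were called lower and 4.54% higher in the 5′ region. The stress genes were already far below WT in every deletion strain. HSP12 had 18.2, 35.3 and 28.7 in dxo1Δ, 26.0, 20.5 and 23.8 in dxo1Δnpy1Δ and 36.7, 43.4 and 60.8 in npy1Δ. The 4 strains that lack RAI1 lay between 232 and 457, and WT had 19422, 22487 and 22061. Its log2 difference from the 6 strains was -2.45 ± 0.23 (adjusted p = 3.42e-09). HOR7, a small stress-induced protein gene chosen after its values were seen, had 502, 719.7 and 645 in dxo1Δ and 578, 602 and 672 in dxo1Δnpy1Δ. The 15 others lay between 1331 and 2564, which leaves a gap to all 6 libraries of the first 2 strains. It differed from the 6 strains by -1.30 ± 0.17 (adjusted p = 1.52e-06). DDR2 and YGP1, of the same list and also chosen by their values, differed by -1.06 ± 0.19 and -0.93 ± 0.16. HSP30, a plasma membrane stress protein gene, was the 1 member called higher, at 0.66 ± 0.16. Without dxo1Δ replicate 2 that difference was 0.36 (adjusted p = 0.22). HSP30 had 99.4, 151 and 81.5 in dxo1Δ, below the 490, 440 and 301 of npy1Δ. The strains that lack RAI1 lay between 24.6 and 47.8.

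**Figure D5:**
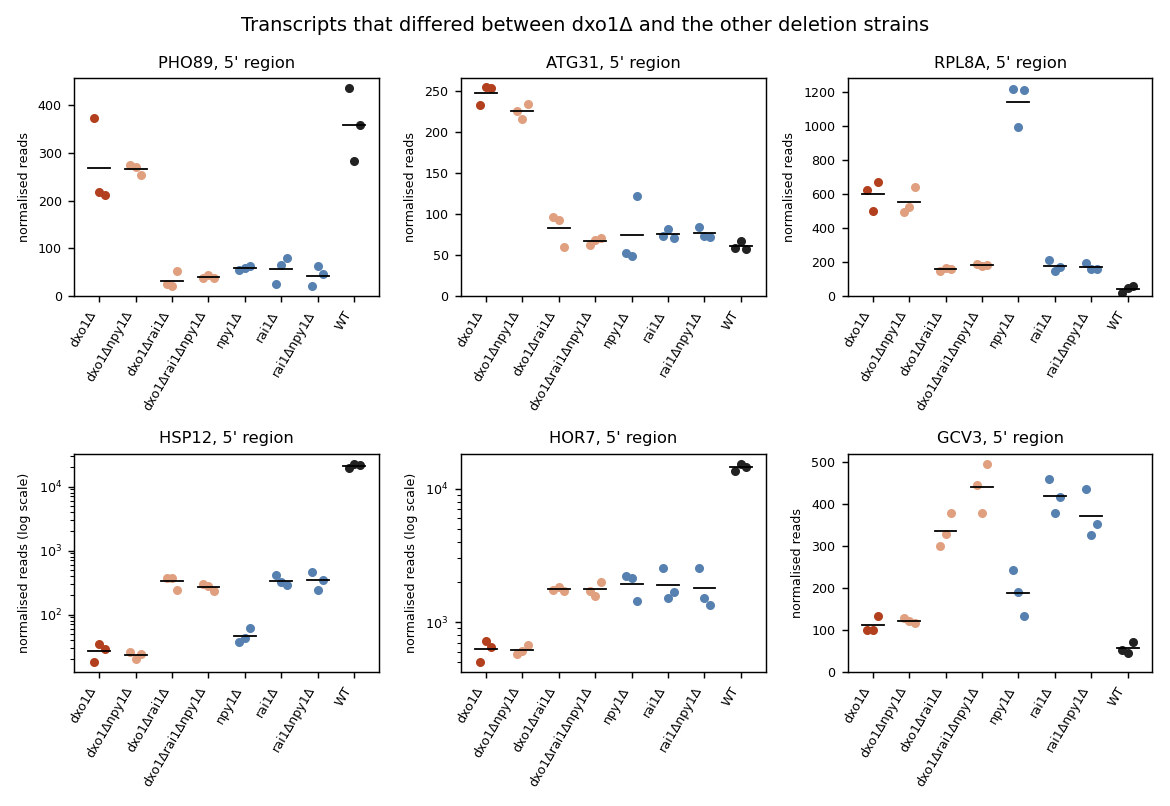
Normalised 5′ region read counts (y axis, linear, or log scale for HSP12 and HOR7) of PHO89, ATG31, RPL8A, HSP12, HOR7 and GCV3 in each library of the 8 strains (x axis, dxo1Δ first and WT last), with bars at the strain means. For HSP12, dxo1Δ lies at 18.2 to 35.3, the strains that lack RAI1 at 232 to 457 and WT at 19422 to 22487.

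Some amino acid and one-carbon genes were also lower than in the other strains. Of 40 genes for amino acid synthesis, 9 were called lower and 0 higher (5 and 0 over the coding sequence). The shares of all transcripts in the 5′ region were 4.47% lower and 4.54% higher. LYS12, the homoisocitrate dehydrogenase of lysine synthesis, had 83.7, 99.6 and 90.7 in dxo1Δ, below all 18 other deletion libraries (lowest 100.1, median 164, highest 209.6). Its log2 difference was -0.79 ± 0.11 (adjusted p = 7.73e-06). The nearest libraries were those of dxo1Δnpy1Δ, at 100.1, 123 and 107, and LYS12 was not called between dxo1Δ and that strain. LYS1, the last enzyme of the same pathway, differed by -1.03 ± 0.18 (adjusted p = 1.96e-04). The 3 genes specific to the glycine cleavage system, which feeds one-carbon units from glycine, were the only 3 of 20 purine and one-carbon genes called in the 5′ region, all lower. Over the coding sequence 3 of the 20 were lower and 3 higher. GCV3 had 99.4, 101 and 132 in dxo1Δ and 128, 119.7 and 116 in dxo1Δnpy1Δ. It had 243, 191 and 132 in npy1Δ and 299 to 495 in the strains that lack RAI1. The difference of GCV3 from the 6 strains was -1.37 ± 0.15 (adjusted p = 6.15e-08). GCV1 and GCV2 differed by -0.80 ± 0.10 and -0.79 ± 0.11, and npy1Δ, at 215, 233 and 223 for GCV1, overlapped dxo1Δ. LYS1 and the 3 GCV genes were chosen after their values were seen.

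The calls among ribosomal protein genes differed between tables. Of 81 large subunit genes, 7 were called lower and 2 higher (median difference -0.29), beside 4.47% lower and 4.54% higher of all transcripts. Of 57 small subunit genes, 2 were called lower and 1 higher. For the large subunit, 0 were lower and 4 higher over the coding sequence, and against the 5 strains of the same sequencing run 25 were lower and 2 higher. RPL8A, 1 of 2 near-identical genes for the same protein and chosen after its values were seen, had 621, 501 and 668 in dxo1Δ and 492, 526 and 639.8 in dxo1Δnpy1Δ. It had 1218, 991 and 1209.6 in npy1Δ and 147 to 214 in the 4 strains that lack RAI1. RPL8A was higher than in the 6 strains by 1.05 ± 0.10 (adjusted p = 3.42e-09). Of 45 processome genes, 1 was higher and 0 lower.

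Smaller lists held single departures, beside 4.54% higher and 4.47% lower of all transcripts. Their genes were chosen after their values were seen. Of 18 gluconeogenesis genes, 3 were called higher and 1 lower. MDH2, the cytosolic malate dehydrogenase, was higher by 0.84 ± 0.11 (adjusted p = 1.52e-06). It had 384, 327 and 403 in dxo1Δ, 276, 294 and 334 in dxo1Δnpy1Δ and 432, 477 and 501 in npy1Δ. The strains that lack RAI1 lay between 118 and 185. ADH2, the alcohol dehydrogenase that oxidises ethanol, was higher by 1.07 ± 0.24, but without dxo1Δ replicate 1 by 0.75 (adjusted p = 0.0868). ALD4, the mitochondrial aldehyde dehydrogenase, was lower (-0.97 ± 0.19). Of 20 NAD genes, 2 were called higher, both transporters of NAD precursors. TNA1, for nicotinic acid, differed by 0.75 ± 0.14, and without dxo1Δ replicate 2 by 0.50 (adjusted p = 0.0565). NRT1, for nicotinamide riboside, differed by 0.71 ± 0.14 (adjusted p = 6.68e-04). It had 74.0, 96.4 and 70.0 in dxo1Δ, 67.1, 109.5 and 76.7 in dxo1Δnpy1Δ and 61.2, 64.1 and 81.8 in npy1Δ. The strains that lack RAI1 lay between 30.6 and 51.1. Of 26 decay genes, 3 were called higher and 1 lower. The higher ones included NPY1 and RAI1, which some of the other strains lack by design. XRN1 had 939.9, 1162 and 1198 in dxo1Δ and 1027, 1123 and 1149 in npy1Δ, against 503 to 918 in the strains that lack RAI1. Its log2 difference was 0.58 ± 0.09 (adjusted p = 5.17e-05). DCP1, a subunit of the decapping enzyme of m7G caps, differed by -0.59 ± 0.17, but failed the test without dxo1Δ replicate 1 (-0.46) or dxo1Δ replicate 2 (-0.59, adjusted p = 0.0829).

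A few transcripts lay at or beyond the edge of the range of the 18 libraries of the other deletion strains. With counts scaled over the 21 deletion libraries, 17 of 7002 transcripts lay above that range and 19 below it (0.514% together). Among those with an adjusted p below 0.05 and a mean normalised count above 20, 10 lay above and 14 below. With the scaling over 24 libraries used for the printed values, 6 of the 10 and 13 of the 14 did so. ATG31, HOS1 and SFL1 are among those that overlap in the printed values. The largest log2 difference among the 10 was that of ATG31, a scaffold protein of autophagosome formation, with 233, 255 and 254 in dxo1Δ and lowest 49.1, median 73.3, highest 234 in the 18 others. The highest of the others belonged to dxo1Δnpy1Δ, at 226, 216 and 234, so dxo1Δ and dxo1Δnpy1Δ overlap. The log2 difference of ATG31 was 1.45 ± 0.14 (adjusted p = 3.42e-09), and 0.55 over the coding sequence. HOS1, a histone deacetylase gene, had 49.7, 43.6 and 43.6 in dxo1Δ and lowest 10.5, median 25.7, highest 43.6 in the others (0.90 ± 0.17), a difference that was -0.03 over the coding sequence. SFL1, a repressor of flocculation genes, had 193, 200.2 and 161 in dxo1Δ and lowest 76.1, median 113, highest 161 in the others (0.67 ± 0.11). Below the range with either scaling was ECM2, a splicing factor, with 19.4, 10.4 and 19.5 in dxo1Δ and lowest 20.7, median 35.6, highest 46.2 in the others (-1.10 ± 0.24, adjusted p = 0.00136). PDX3, which makes pyridoxal phosphate, had 114, 112 and 125 in dxo1Δ and lowest 127, median 192, highest 243 in the others (-0.69 ± 0.13). In dxo1Δnpy1Δ, PDX3 had 127, 150 and 127, which include the lowest of the others, and ECM2 had 23.0, 24.6 and 25.1. Neither gene was called between dxo1Δ and dxo1Δnpy1Δ.

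Among noncoding RNAs, snoRNAs and tRNAs were called mostly in 1 direction. Of 77 snoRNAs, 23 were called higher and 0 lower (median difference 0.32, against -0.00069 for all transcripts). Of 244 tRNA genes, 43 were called higher and 1 lower (median difference 0.56). In the coding sequence table, 9 snoRNAs were called higher and 0 lower, and 27 tRNA genes higher and 2 lower. The 2 tables differ in the region counted for mRNAs, whereas SCR1 reads were identical in both (1667963, 2122762 and 1966531 in dxo1Δ). For noncoding RNAs and repeats the coding sequence table is therefore not an independent measurement, and its library totals and scaling differ. Both classes differed most from npy1Δ, of the other sequencing run, with median differences of 1.09 for snoRNAs and 1.65 for tRNAs. Against the 5 strains of the same run, 12 snoRNAs were called higher and 1 lower, and 20 tRNA genes higher and 2 lower. SNR52, a box C/D snoRNA transcribed by RNA polymerase III, had 4469, 4716 and 4227 in dxo1Δ and 254, 282 and 1015 in npy1Δ. Its log2 difference from the 6 strains was 0.87 ± 0.18, and 0.41 within the run (adjusted p = 0.123). SNR56 had 771, 936 and 623 in dxo1Δ and 741, 908 and 706 in dxo1Δnpy1Δ. The 15 others lay between 224 and 389 (1.08 ± 0.10, adjusted p = 5.69e-09). Among long terminal repeats 7 were higher and 23 lower, or 2 and 43 in the coding sequence table. YARWdelta6 had 29.1, 27.0 and 24.1 in dxo1Δ and 47.2 to 239 outside dxo1Δnpy1Δ (-1.98 ± 0.15, adjusted p = 8.34e-11). Repeats of this kind have many copies, so the source of these reads is uncertain. SNR52, SNR56 and YARWdelta6 were chosen after their values were seen.

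A cell surface gene and a pheromone gene lay higher in the strains that keep RAI1 than in those that lack it. TIR1, a cell wall mannoprotein gene, had 255, 241 and 117 in dxo1Δ and 158, 206 and 115 in dxo1Δnpy1Δ. It had 762, 635 and 101 in npy1Δ and 11.4 to 25.8 in the 4 strains that lack RAI1. Its log2 difference from the 6 strains was 2.07 ± 0.30 (adjusted p = 9.78e-06). MF(ALPHA)2, the second α-factor gene, had 1092, 949 and 907 in dxo1Δ and 251 to 479 in the strains that lack RAI1, with 1792, 1752 and 1326 in npy1Δ. This made a log2 difference of 0.85 ± 0.10 (adjusted p = 7.18e-07). Of the 4 α-specific genes, it was the 1 called higher, and SAG1 was called lower (-0.64, adjusted p = 6.13e-05). MF(ALPHA)1 and STE3 differed by -0.05 and -0.01. TIR1 was chosen after its values were seen.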

How the data were processed

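RNA from the yeast strains was depleted of rRNA, sheared and sequenced single end with strand-specific libraries. The authors aligned reads with Bowtie to the BY4742_Toronto_2012 genome, set rRNA and tRNA reads apart and deposited raw read counts per feature from HTSeq, for a 5′ region and for the coding sequence. The deposited tables of fold changes and p-values hold the authors' own comparisons and were not used. Every count column used matched 1 labelled sample, and 0 columns were left without one.

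Counts were scaled by TMM and tested with edgeR 4.0.16 (quasi-likelihood, Benjamini-Hochberg adjustment) in R 4.3.3, for features with a mean normalised count above the minimum of 1. dxo1Δ and WT were fitted with 6 libraries, and dxo1Δ and the other strains with 21. SE is the log2 fold change over the square root of F. Read shares were compared by exact permutation. Deviations of same-numbered libraries from their strain means correlated above 0.1 in all 3 pairs of dxo1Δ with npy1Δ (0.143 to 0.238) and with dxo1Δnpy1Δ (0.147 to 0.272). For the other strains and WT at least 1 pair lay below this limit, with 0.079, 0.104 and 0.285 for dxo1Δrai1Δnpy1Δ. These correlations are low and the limit is a convention, so they do not establish a pairing. The labels name no shared batch. The procedure was run on simulated counts in which few transcripts changed, evenly in both directions. That setting differs from the comparison with WT, in which most transcripts passed the test, so it does not test that comparison. Library sizes were 4926021 to 17733417 reads in the 5′ region table, and less deep libraries give less precise values. p-values measure the spread between triplicate cultures of 1 line.

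Named genes were DXO1, NPY1, RAI1 and the neighbours of DXO1; the 12 largest increases and decreases; the 10 highest and 10 lowest transcripts outside the range of the other strains (scaled over 21 libraries); and, per list, the 2 most abundant and the 2 most changed members. Other genes are said to be chosen by their values. Members and lists were chosen with earlier results of these data known. Alternatives were DESeq2 1.42.0, other scalings and filters, the coding sequence, a replicate block, the same sequencing run and leaving out each replicate. No sequence was analysed here.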

Additional observations from a re-analysis of the deposited data

How the results depend on the processing

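Against WT, 2655 transcripts were higher and 2517 lower (51.3% higher). With total counts 5102 were higher and 860 lower (85.6% higher), and at least 4-fold 3087 higher and 380 lower. DESeq2 called 2413 higher and 2280 lower. Total counts turned the log2 fold change of DXO1 in its 5′ region to 0.0813, of GCN4 to 0.0221 and of PHO89 to 1.20. Over the coding sequence XRS2 was -0.45 and PHO89 0.0689. The snoRNA read share was 5.578 percentage points higher in dxo1Δ, but with SCR1 left out of the denominator it was -1.041 points (exact p = 0.5).

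Against the 6 other deletion strains (50.4% of the calls higher), 207 were higher and 278 lower over the coding sequence (42.7% higher), and 41.9% were higher with total counts. Leaving out each dxo1Δ replicate gave 392 to 683 calls, with 200 to 343 higher and 192 to 340 lower. HOS1 was -0.0337 over the coding sequence. Against the 3 strains that keep DXO1, 285 were higher over the coding sequence, and within the same sequencing run 1393 were called, of them 753 lower. HSP30 lay at -0.0143 to 0.466 against those 3 strains when each dxo1Δ replicate was left out, the lowest without replicate 2. The cause of each of these changes was not tested.

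Correlations of deviations between same-numbered libraries of dxo1Δ and WT were -0.105 to 0.0518. With the 4 strains that lack RAI1 they were -0.222 to 0.285. With a replicate block, 2616 were higher and 2478 lower against WT, 314 and 312 against the 6 strains, and 475 and 449 against the 3. Against npy1Δ and dxo1Δnpy1Δ, where all 3 correlations were above 0.1, fits of the 6 libraries alone were chosen after seeing the data. They called 1628 with the block and 1592 without it against npy1Δ, and 2 with and 2 without it against dxo1Δnpy1Δ. Leaving out the 24 features without reads in the dxo1Δ run, an alternative chosen after seeing the data, gave 2653 higher and 2493 lower. Low 5′ region counts limit transcripts such as DXO1.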
